A study of Arabidopsis thaliana with 8 samples.

Results

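The 68 genes described here were higher than wild type in both as1-1 and tfl2-1 single mutant seedlings of Arabidopsis thaliana. They were chosen from the genotype means of the authors' deposited log2 value table: as1-1 minus wild type (WT) of 0.6 or more, tfl2-1 minus WT of 0.6 or more, and a tfl2-1 mean of 7 or more. The meristem homeobox genes KNAT1, KNAT2, KNAT6 and STM and the floral gene PI were left out by name. With 1 probe per gene, the rule found 68 of the 34285 genes with a probe, and all 68 were among the 22668 genes tested. The samples were whole seedlings of ecotype Col-0, 12 days old, grown on MS medium in long days, of 4 genotypes: WT, as1-1, tfl2-1 and the double mutant as1-1 tfl2-1. Each genotype was hybridised to 2 one-colour arrays, labelled as replicates with no mention of separate cultures, so the p-values measure the spread between these samples, which may be technical. The as1-1 and tfl2-1 alleles are named in the labels without a description of the lesion.

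AS1 (asymmetric leaves 1) is a MYB transcription factor that works with its partner AS2 to keep class I KNOX meristem genes silent in leaves. TFL2, also known as LIKE HETEROCHROMATIN PROTEIN1, is a chromodomain protein that binds histone H3 trimethylated at lysine 27 and takes part in Polycomb silencing of floral and meristem genes. Where a pair of mutations raises the same gene, a double mutant shows whether the effects add. Here that sum was taken on the log2 scale, where adding differences means multiplying folds. The interaction is the difference of the double mutant from that sum, and equals the effect of as1-1 in tfl2-1 plants minus the effect of as1-1 over WT.

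Levels are given as the log2 of the background-corrected signal of a gene's probe, scaled to the 75th percentile of each array, and are compared only within a probe. The targeted genes were measured first. TFL2 read 10.18 and 10.07 in WT, 10.00 and 10.11 in as1-1, 9.02 and 9.06 in tfl2-1, and 9.38 and 9.41 in the double mutant. AS1 read 11.30 and 11.24 in WT, 10.77 and 10.78 in as1-1, 10.98 and 10.93 in tfl2-1, and 11.22 and 11.36 in the double mutant. TFL2 was thus lowest in both genotypes with tfl2-1, while the AS1 signal was low in as1-1 and near WT in the double mutant. What part of each transcript the probes cover in relation to the lesions is not given in the sources used here, so neither gene settles the labels. WT and as1-1 shared 1 slide, and tfl2-1 and the double mutant shared the other. Differences between tfl2-1 and WT, and between the double mutant and WT or as1-1, therefore cannot be told apart from the slide, whereas as1-1 minus WT, the double mutant minus tfl2-1, and the interaction compare arrays within slides.

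In the rule's own contrasts the 68 genes are a description and not a test. Their median difference was 0.79 for as1-1 and 1.204 for tfl2-1, against -0.04 and -0.01 over all genes tested, and the tfl2-1 difference was the larger of the pair for 52 genes. The as1-1 differences ran from 0.60 to 2.24, and the tfl2-1 differences from 0.59 to 4.42 among the 63 genes not below background in WT. In the model described below, 59 of the 68 were called higher in as1-1 (background 7.09% of all genes) and 65 in tfl2-1 (background 26.2%). In 64 of the genes all 4 single-mutant arrays lay above both WT arrays, and the exceptions were ECP63, MYB66, AT5G44350 and AT1G24330. The rule chose the genes on these same arrays, and the share over all genes was not counted. Just inside the as1-1 threshold, the array entry TA27785_3702 had a difference of 0.606 in the deposited table and the yellow stripe-like metal transporter gene YSL5 had 0.609. Just outside it, H36698 had 0.599 and the expansin gene EXPA16 had 0.597. At the tfl2-1 threshold, MYB66 lay inside at 0.601 and AT5G60680 outside at 0.594. At the minimum level, AT1G44970 lay inside at 7.03 and AT4G00200 outside at 6.997.

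All 68 passed the filter on dim probes, and 61 were well above background on all 8 arrays. The 5 genes below background on both WT arrays were NM_116786, ENDO3, CYP96A15, ECP63 and AT1G44970, and NM_116786 and ENDO3 were also below it in as1-1. Their single-mutant differences are therefore not measured on both sides. In all, 11 of the 68 had no match in the RefSeq table and keep the identifier of the array.

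The double mutant was above WT for most of the group, and for 31 of the 68 genes it was called below the sum of the single-mutant differences, a count that the choice of the genes itself raises. Against WT, 57 of 68 genes rose in the double mutant and 1 fell (limma, Benjamini-Hochberg adjusted p under 0.05, background 30.8% higher and 32.9% lower over all genes tested). The median difference was 1.65, against -0.01 over all genes. In 64 genes both double mutant arrays lay above both WT arrays (background 40.6%). Against tfl2-1, the addition of as1-1 raised 28 genes (background 13.5%) and lowered 13 (background 18%), and 27 were not called. Against as1-1, the addition of tfl2-1 raised 43 genes (background 32.5%) and lowered 8 (background 29%). The WT, as1-1 and tfl2-1 arrays took part in choosing the genes, and only the double mutant arrays did not.

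The interaction was called below the sum for 31 genes (background 9.67%) and above it for 3 (background 10.6%). The other 34 were not called. Among the 63 genes not below background in WT, 29 were called below the sum and 3 above. The median interaction was -0.66, against 0.03 over all genes tested, and 53 of the 68 values were under 0. A missed threshold does not show that effects added. Of the 34 genes not called, 12 had a 95% interval that lay within 0.5 of the sum on both sides, so that their interaction is bounded (except for ENDO3, which was below background in WT and as1-1). In 6 others the interval reached more than 1 to each side of the estimate, so that the size of the interaction is poorly bounded. Among them, CYP96A15 (-3.85 to -0.23, below background in WT) and AT1G24330 (-4.23 to -0.09) had unadjusted intervals under 0. Other genes not called also had unadjusted intervals that left out 0, on either side, such as ADF9 (0.09 to 0.70) and scpl31 (-0.93 to -0.14). Of all 68 genes, called or not, 21 had an unadjusted interval that held 0.

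**Figure D1:**
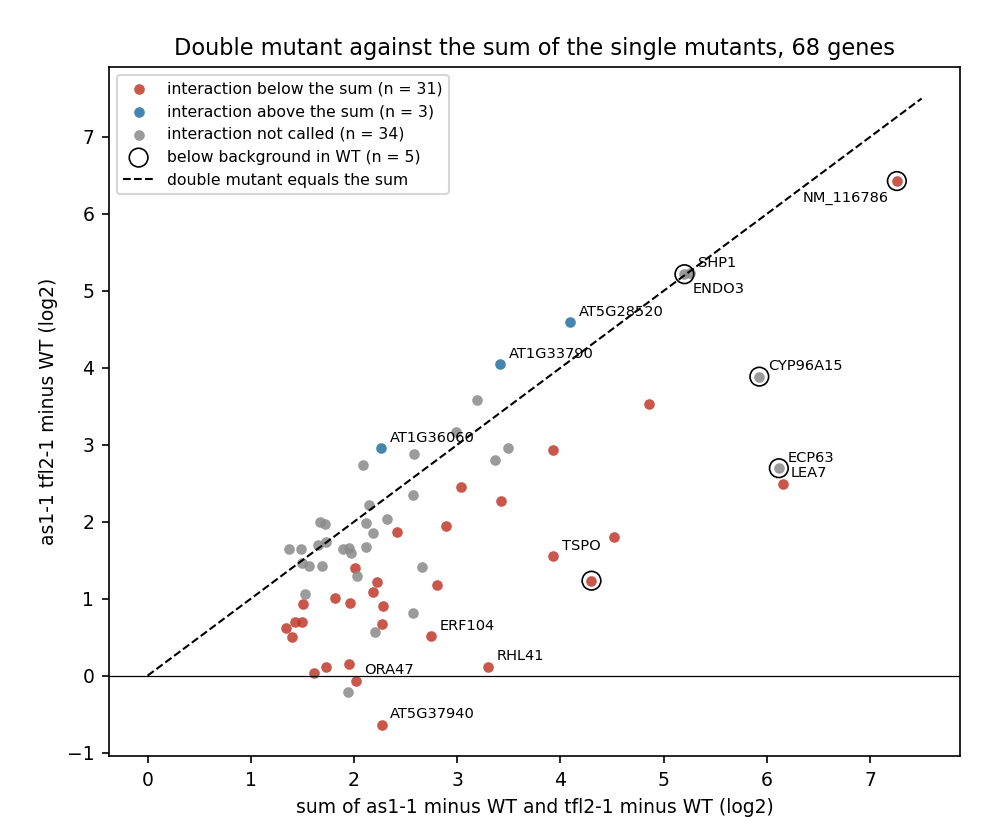
Each point is 1 of the 68 genes. The x axis is the sum of the log2 differences as1-1 minus WT and tfl2-1 minus WT, the y axis is the log2 difference of as1-1 tfl2-1 minus WT (means of 2 arrays per genotype), the dashed line marks equality, and colours give the interaction call (31 below, 3 above, 34 not called). Rings mark the 5 genes below background in WT, whose positions rest on WT levels that were not measured. SHP1 lies on the line near 5.2, AT5G28520, AT1G33790 and AT1G36060 lie above it, and RHL41, ORA47 and AT5G37940 lie near or under 0.

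A rule that asks for high values in as1-1 and tfl2-1 over the same WT arrays pulls the interaction down by itself. When genes were chosen by the same rule on the first replicate of each genotype and read on the second, 112 genes were chosen, of which 56 were among the 68. Their median interaction was -0.68 on the arrays that chose them and -0.24 on the other arrays, where 80 of the 112 values were under 0. The share under 0 over all genes on those arrays was not counted. On those other arrays only 45 of the 112 again met both difference thresholds. Since the replicates may be technical, a deviation shared by both arrays of a genotype stays in this reading. It therefore does not give the part of the interaction that is due to the choice.

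The departure from the sum was also read on the linear scale, and interactions were compared between probes of unlike brightness. If the 2 increases over WT were added as linear signal and not as log2 differences, the median of the double mutant over that sum was -0.22 on the log2 scale, with 28 genes above the linear sum and 40 under it. Of the 31 genes called below the log2 sum, 30 were also under the linear sum by point value. Over 5784 pairs of probes for 1 gene, the dimmer probe gave an interaction 0.07 lower than the brighter one at the median, and 0.15 lower for the 2195 pairs more than 3 apart on the log2 scale. The dimmer probe also gave differences from WT that were higher, by 0.10 for as1-1, by 0.09 for tfl2-1 and by 0.13 for the double mutant. The part of this in the results for single genes was not tested.

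**Figure D2:**
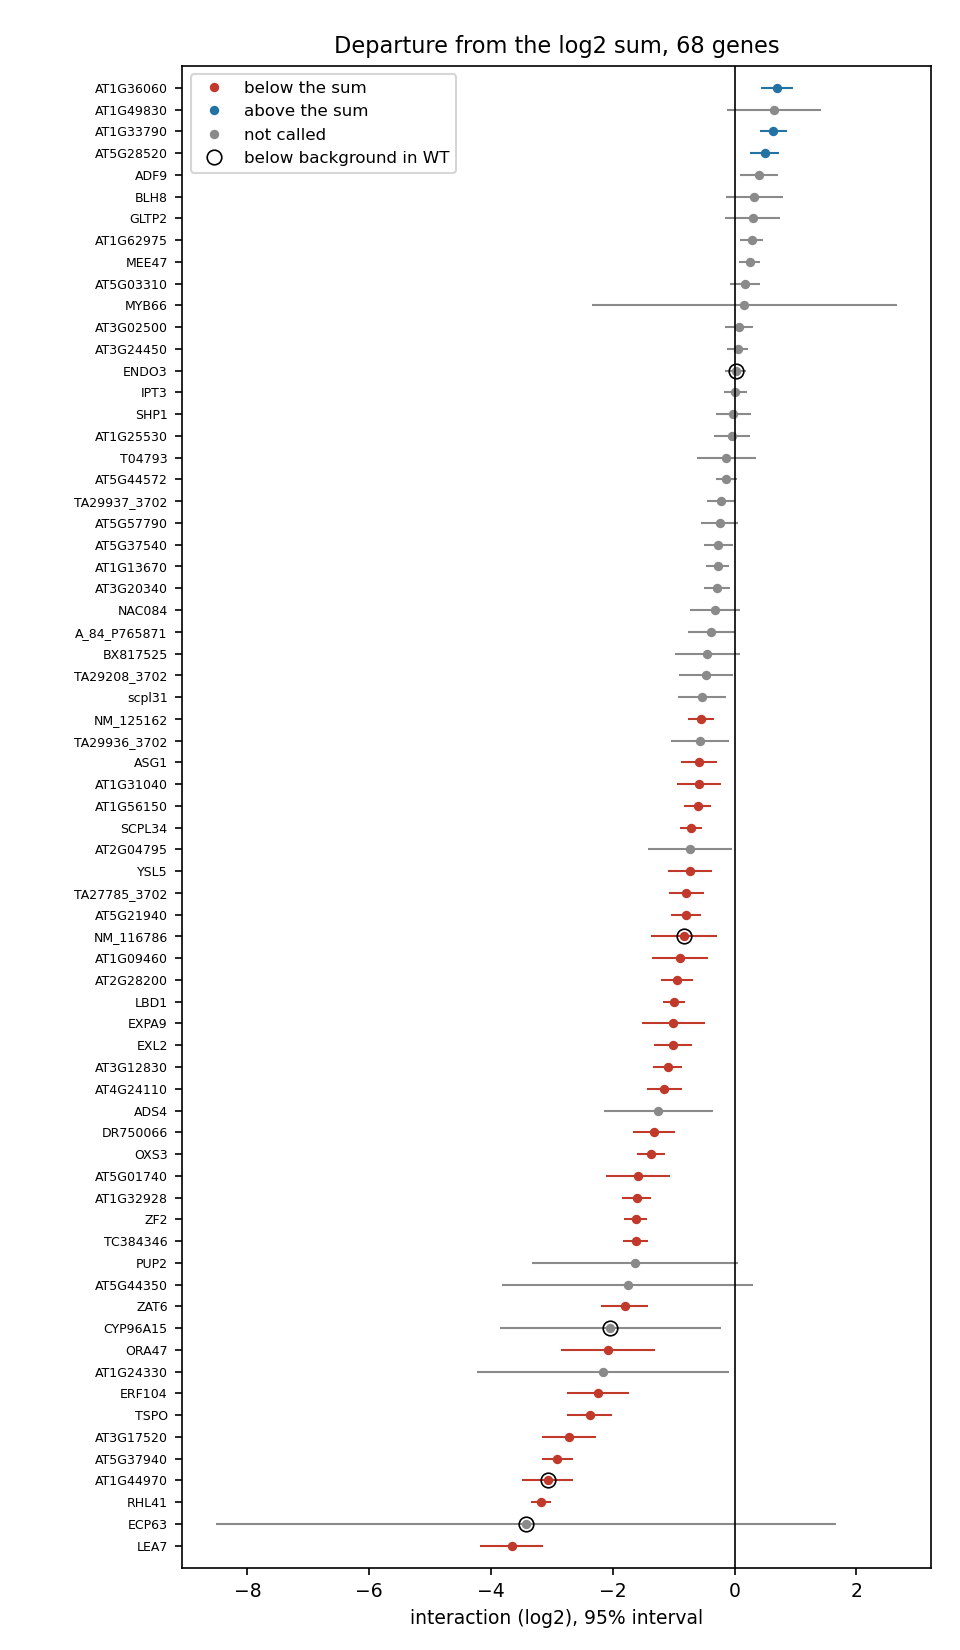
The interaction of each of the 68 genes on the log2 scale (x axis), ordered by size, with its 95% interval (horizontal line), unadjusted, and rings for the 5 genes below background in WT. Points left of 0 are genes whose double mutant lay under the sum of the single-mutant differences. The values run from -3.66 for LEA7 to 0.70 for AT1G36060, and the widest intervals belong to ECP63 and MYB66, whose replicate arrays scattered.

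By arrays, the group fell into those in which the double mutant exceeded both single mutants and those in which it did not. In 33 genes both double mutant arrays lay above all 4 single-mutant arrays (background 24.8%), and in 10 genes both lay below them all (background 23.6%). In the other 25 the double mutant lay between the single mutants or overlapped them. The 33 genes with the double mutant above both single mutants included all 3 called above the sum, 26 not called and 4 called below it. Of the 10 genes with the double mutant below both single mutants, 9 were called below the sum.

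The floral and meristem regulators SHP1 and BLH8 rose further in the double mutant than in either single mutant, and neither interaction was called. SHP1 (SHATTERPROOF1, AT3G58780) is a MADS-box factor of carpel, ovule and fruit margin development. It read 5.57 and 5.80 in WT, 6.48 and 6.55 in as1-1, 10.12 and 10.09 in tfl2-1, and 10.87 and 10.97 in the double mutant. No genotype overlapped another. The differences from WT were 0.83, 4.42 and 5.23 (SE 0.08 each), and as1-1 added 0.81 in tfl2-1 plants (adjusted p = 0.00134). The interaction was -0.02 with a 95% interval from -0.31 to 0.27. With another background correction (normexp on the raw and local background signals), the SHP1 interaction was 0.44 (adjusted p = 0.00716), so that its call differed with the correction. Of 21 floral identity genes listed and tested, SHP1 alone was in the group. Over that list, 3 genes were called higher in as1-1 than in WT and 4 lower (background 7.09% and 12.1%). The double mutant was called higher than tfl2-1 for 6 of the list and lower for 4 (background 13.5% and 18%). The interaction was called above the sum for 5 and below it for 2 (background 10.6% and 9.67%).

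BLH8 (POUND-FOOLISH, AT2G27990) is a BELL homeodomain protein that pairs with KNOX proteins such as STM in the shoot meristem. It read 7.09 and 7.37 in WT, 7.86 and 8.11 in as1-1, 8.10 and 8.19 in tfl2-1, and 9.35 and 9.11 in the double mutant. The 2 single mutants differed little from each other at 0.76 and 0.92 over WT, with 1 as1-1 array above a tfl2-1 array, and both double mutant arrays were higher. The double mutant stood 2.00 over WT (SE 0.14, adjusted p = 5.83e-05), 1.08 over tfl2-1 (adjusted p = 0.00257) and 1.24 over as1-1 (adjusted p = 0.000446). The interaction of 0.32 was not called (interval -0.14 to 0.79). Of 13 BELL genes listed and tested, BLH8 alone was in the group, and over the list the double mutant was higher than tfl2-1 for 3 and lower for 2 (background 13.5% and 18%).

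The genes left out by name are given beside the group. KNAT1, KNAT2, KNAT6 and PI also met the rule's thresholds in these data, so their values are not an independent reference. KNAT1 and KNAT2, class I KNOX genes of the meristem, differed from WT by 1.94 and 1.12 with as1-1, by 0.97 and 1.93 with tfl2-1 and by 3.32 and 3.46 with both mutations, with interactions of 0.40 and 0.41 (adjusted p = 0.0197 and 0.02). KNAT6 had an interaction of 0.23 (adjusted p = 0.236). STM had an interaction of 0.41 (adjusted p = 0.0395) but differed by only 0.28 in as1-1 and would not have met the rule. PI, a floral homeotic MADS-box gene, had differences of 1.68, 3.61 and 3.85 in the same order, and its interaction was -1.44 (adjusted p = 0.000426).

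The next genes, tied to cytokinin and auxin, were picked after their values were seen. None of them was called above the sum, a call made for 4.41% of the group and 10.6% of all genes tested. With so few genes, this says nothing about hormone genes as a set. IPT3 (AT3G63110), an isopentenyltransferase that makes cytokinin, read 9.44 and 9.33 in WT, 10.04 and 10.05 in as1-1, 10.45 and 10.45 in tfl2-1, and 11.16 and 11.08 in the double mutant. Its levels rose in that order with no overlap, the double mutant was 1.74 over WT (SE 0.05), and the interaction was 0.01 (interval -0.18 to 0.20). PUP2, a purine permease of a family that can carry cytokinins, was scattered in as1-1 at 8.31 and 9.99, and its interaction of -1.64 had an interval from -3.33 to 0.05. SAUR44, SAUR71 and SAUR72 carry small auxin upregulated RNA (SAUR) names in RefSeq, a family of short auxin-responsive transcripts that act in cell expansion. SAUR44 (AT5G03310) read 5.09 and 5.13 in WT, 5.88 and 5.79 in as1-1, 7.43 and 7.32 in tfl2-1, and 8.20 and 8.35 in the double mutant, an order without overlap and an interaction of 0.17 (interval -0.08 to 0.42). SAUR71 (AT1G56150) and SAUR72 (AT3G12830) were called below the sum, at -0.61 and -1.10 (adjusted p = 0.00723 and 0.00127). SAUR71 still rose above both single mutants in the double mutant, by 0.31 over tfl2-1 (adjusted p = 0.0137) and 0.49 over as1-1 (adjusted p = 0.000883), whereas SAUR72 was at 10.05 and 9.88 in the double mutant and 10.06 and 10.04 in as1-1, which overlap.

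The 3 genes called above the sum have no gene name in RefSeq. AT1G33790 read 7.81 and 7.91 in WT, 9.19 and 9.29 in as1-1, 9.86 and 9.94 in tfl2-1, and 11.88 and 11.95 in the double mutant. Its single-mutant differences of 1.38 and 2.04 sum to 3.42, and the double mutant reached 4.05 (SE 0.06), or 16.6-fold over WT, with an interaction of 0.63 (adjusted p = 0.00702). The as1-1 mutation raised AT1G33790 by 1.38 over WT and by 2.01 in tfl2-1 plants.

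AT1G36060 read 6.44 and 6.26 in WT, 7.40 and 7.42 in as1-1, 7.62 and 7.51 in tfl2-1, and 9.29 and 9.33 in the double mutant. The single mutants lay close to each other, and the double mutant was 1.75 over tfl2-1 and 1.90 over as1-1 (adjusted p = 8.89e-05 and 7.11e-06). Its interaction was 0.70 (adjusted p = 0.00832), the largest of the 68. AT5G28520 read 4.98 and 5.13 in WT, 6.50 and 6.62 in as1-1, 7.63 and 7.66 in tfl2-1, and 9.64 and 9.65 in the double mutant, 24.1-fold over WT. Its interaction of 0.49 (adjusted p = 0.0187) passed with all 8 arrays, and missed the threshold without filtering dim probes (adjusted p = 0.0689) and without the first as1-1 array or any 1 array of tfl2-1 or the double mutant (adjusted p from 0.0545 to 0.0599).

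Other genes had an order of WT, single mutants and double mutant like that of IPT3. ADF9 (AT4G34970), an actin-depolymerizing factor, read 7.49 and 7.66 in WT, 9.03 and 9.04 in as1-1, 9.25 and 9.35 in tfl2-1, and 11.26 and 11.06 in the double mutant. The double mutant was 1.86 over tfl2-1 (adjusted p = 0.000115), and the interaction of 0.40 missed the threshold (adjusted p = 0.0736). ENDO3 (AT4G21590), a nuclease of the endonuclease family, was below background in WT and as1-1, read 7.17 and 7.10 in tfl2-1 and 7.91 and 7.96 in the double mutant, and was at least 7.90-fold higher in tfl2-1 than in WT and at least 13.8-fold higher in the double mutant (adjusted p = 2.55e-07 for the latter). The as1-1 mutation raised ENDO3 by 0.80 in tfl2-1 plants (adjusted p = 0.000256), where it could be measured on both sides. MEE47, GLTP2 (a glycolipid transfer protein), AT3G02500, AT3G24450, AT1G25530 and AT1G62975 had interactions between -0.04 and 0.30, none of them called, and all 6 were higher in the double mutant than in tfl2-1. The unadjusted intervals of MEE47 (0.07 to 0.42, adjusted p = 0.0577) and AT1G62975 (0.09 to 0.47, adjusted p = 0.0551) lay above 0. Those of the other genes in this row held 0.

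**Figure D3:**
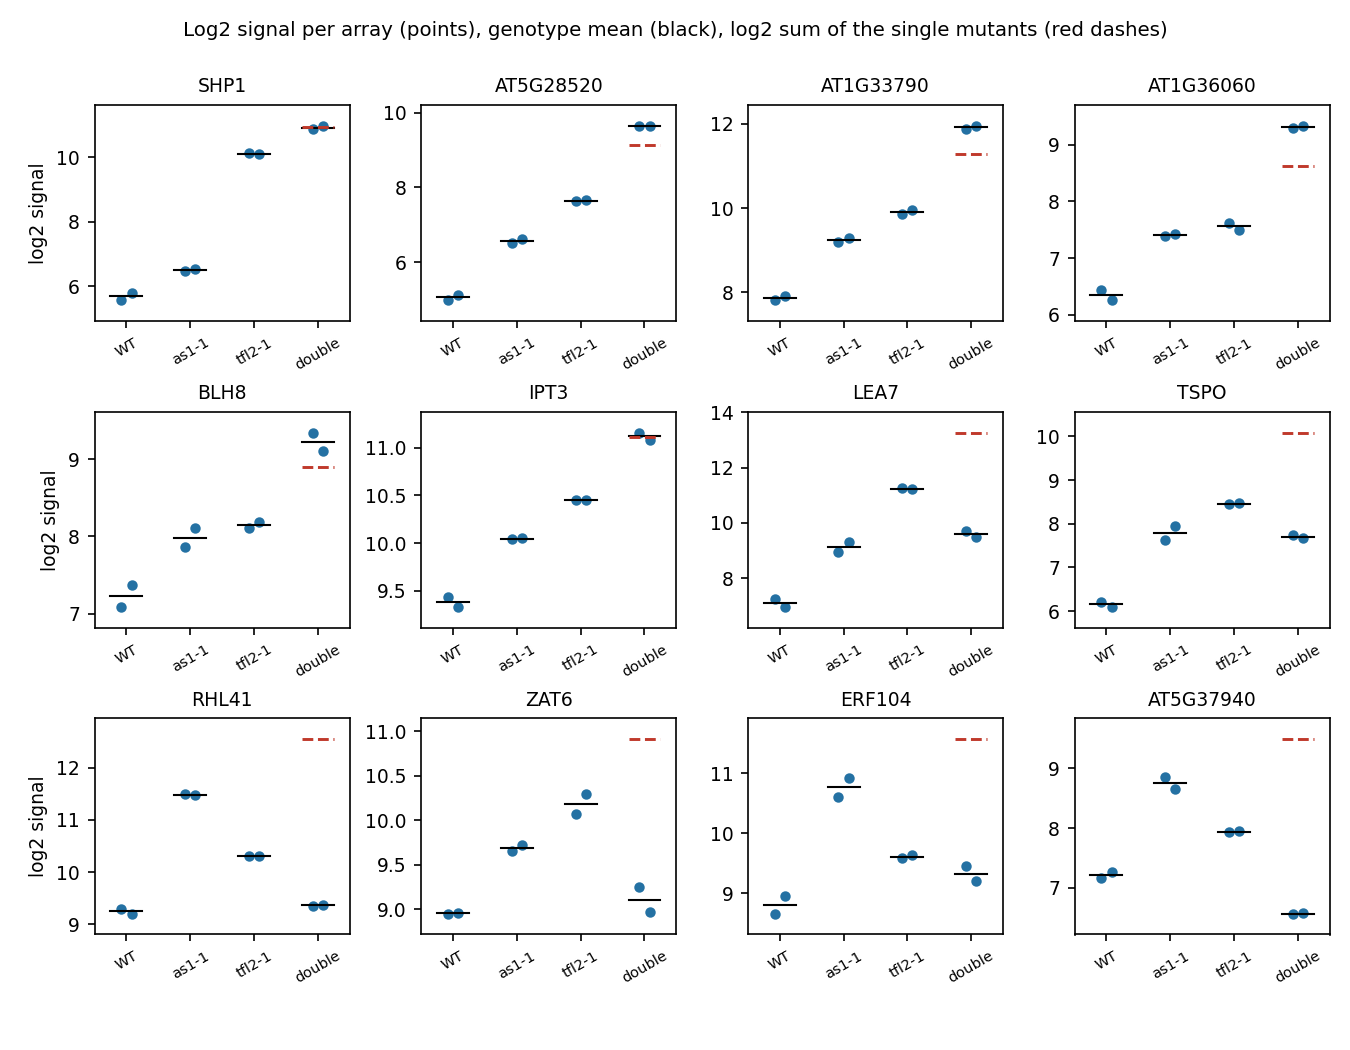
Log2 signal on each array (points) for 12 genes, with the genotype mean (black bar) and the level at which the double mutant would equal the log2 sum of the single-mutant differences (red dashes). The y axes differ between panels and do not start at 0. SHP1 and IPT3 meet the dashes, AT5G28520, AT1G33790 and AT1G36060 exceed them, and LEA7, TSPO, RHL41, ZAT6, ERF104 and AT5G37940 stay more than 1.7 below them.

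At the other end, the zinc-finger genes RHL41, ZAT6 and ZF2, high in each single mutant by the rule, did not pass against WT in the double mutant. RHL41 (ZAT12, AT5G59820) is a C2H2 zinc-finger protein induced by high light, cold and wounding. It read 9.29 and 9.203 in WT, 11.50 and 11.47 in as1-1, 10.31 and 10.31 in tfl2-1, and 9.35 and 9.37 in the double mutant. Both double mutant arrays lay below all single-mutant arrays and 0.12 above WT on average (adjusted p = 0.0716). As1-1 minus WT was 2.24, while as1-1 lowered RHL41 by 0.95 in tfl2-1 plants (adjusted p = 0.000131), and the interaction was -3.19 (SE 0.07, adjusted p = 2.01e-05).

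ZAT6 (AT5G04340), another stress-induced C2H2 zinc-finger protein, read 8.95 and 8.96 in WT, 9.65 and 9.72 in as1-1, 10.07 and 10.29 in tfl2-1, and 9.25 and 8.96 in the double mutant. The double mutant arrays lay 0.15 above WT on average (adjusted p = 0.275), the lower one just above both WT arrays, and the interaction was -1.80 (adjusted p = 0.00127). ZF2 (AZF2, AT3G19580), also a C2H2 zinc-finger protein, linked to abscisic acid and salt responses, read 8.49 and 8.60 in WT, 9.21 and 9.28 in as1-1, 9.56 and 9.58 in tfl2-1, and 8.65 and 8.66 in the double mutant, with an interaction of -1.62 (adjusted p = 0.00014). ERF104 (AT5G61600), an ethylene response factor of defence signalling, read 8.67 and 8.96 in WT, 10.61 and 10.92 in as1-1, 9.58 and 9.63 in tfl2-1, and 9.45 and 9.199 in the double mutant. For ERF104 the double mutant was 0.51 over WT (adjusted p = 0.0232) and did not pass against tfl2-1 (difference -0.28, adjusted p = 0.194), and the interaction was -2.24 (adjusted p = 0.0016).

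ORA47 (AT1G74930), an AP2/ERF factor of the jasmonate response, read 6.86 and 6.90 in WT, 7.74 and 7.66 in as1-1, 8.07 and 8.09 in tfl2-1, and 7.20 and 6.44 in the double mutant. Its double mutant arrays scattered around WT, and the interaction was -2.08 (adjusted p = 0.00847). AT5G37940, which has no gene name in RefSeq, was the 1 gene of the group that fell against WT: it read 7.16 and 7.26 in WT, 8.85 and 8.65 in as1-1, 7.93 and 7.96 in tfl2-1, and 6.57 and 6.58 in the double mutant. The fall was 0.64 (SE 0.08), that is a log2 difference of -0.64 (adjusted p = 0.000585), and the interaction was -2.91 (adjusted p = 6.62e-05). AT5G01740, AT1G32928 and AT1G09460 were also below both single mutants on both double mutant arrays and were called below the sum, at -1.58, -1.61 and -0.90.

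RHL41, ZAT6, ZF2 and ERF104 belong to a list of 30 genes of the rapid response to touch, wounding and cold, of which 29 were tested. Over that list 24 genes were called higher in as1-1 and 1 lower (background 7.09% and 12.1%), 8 higher and 18 lower in tfl2-1 (26.2% and 28.4%), and 4 higher and 21 lower with both mutations (30.8% and 32.9%). The share higher in tfl2-1 was thus near the background, and the members are the list's genes that the rule picked for being high there. The interaction was called below the sum for 25 of 29 and above it for 1, with a median of -2.09 where all genes tested had 0.03. The interactions of the 4 members ran from -3.19 to -1.62. Their tfl2-1 differences, which the rule used, were 0.80 to 1.22, where the list's median was -0.35. Without these 4 genes, 4 of 64 were lower in the double mutant than in as1-1 (6.25%), in place of 8 of 68 (11.8%).

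**Figure D4:**
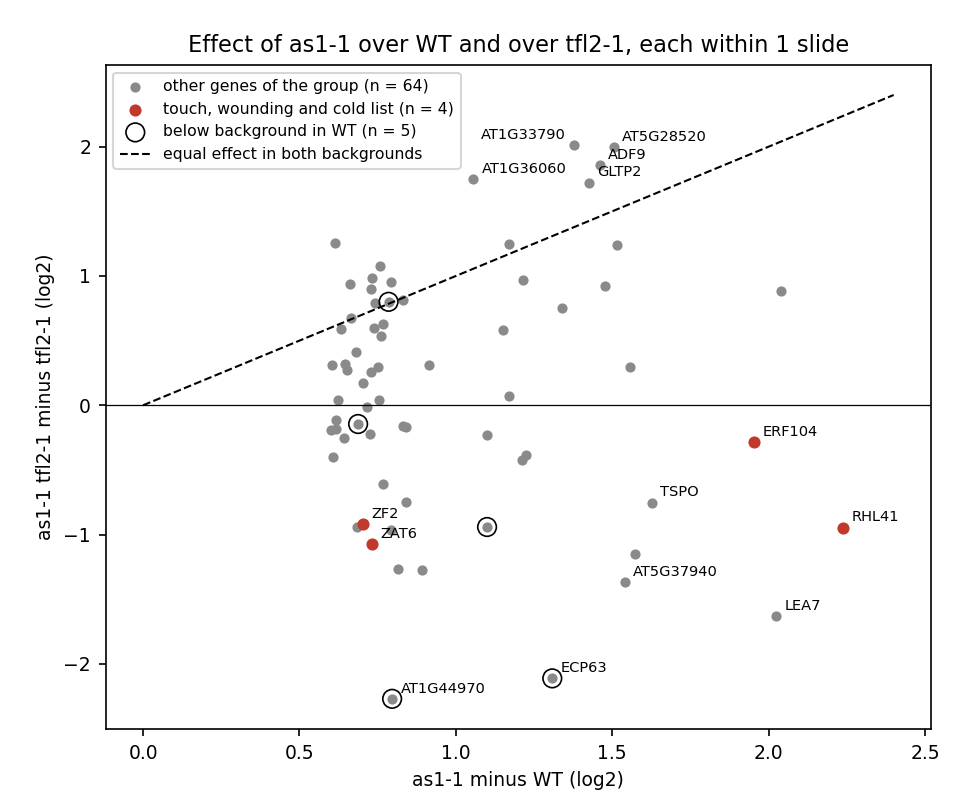
The log2 effect of as1-1 over WT (as1-1 minus WT, x axis) and in tfl2-1 plants (as1-1 tfl2-1 minus tfl2-1, y axis) for the 68 genes, each difference within 1 slide, with rings for the 5 genes below background in WT. The dashed line marks an equal effect, and red points are the 4 members of the touch, wounding and cold list, all of which lie below 0 on the y axis. AT1G33790, AT5G28520 and AT1G36060 lie above the line, and LEA7, ECP63 and AT1G44970 lie below -1.6 on the y axis.

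A further set was highest in tfl2-1 and lower in the double mutant, while staying above WT. LEA7 (AT1G52690), a late embryogenesis abundant protein that accumulates on desiccation, read 7.26 and 6.97 in WT, 8.96 and 9.32 in as1-1, 11.26 and 11.23 in tfl2-1, and 9.70 and 9.51 in the double mutant. No genotypes overlapped, and the double mutant lay between the single mutants. The double mutant was 1.63 under tfl2-1 (difference -1.63, adjusted p = 0.00087), 2.50 over WT (adjusted p = 3.56e-05), and short of the sum by an interaction of -3.66 (SE 0.21, adjusted p = 0.000315).

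TSPO (AT2G47770), a membrane protein induced by abscisic acid and osmotic stress, read 6.21 and 6.10 in WT, 7.62 and 7.94 in as1-1, 8.45 and 8.47 in tfl2-1, and 7.75 and 7.66 in the double mutant. The double mutant overlapped as1-1 and was below tfl2-1 (difference -0.75, adjusted p = 0.00395), with an interaction of -2.38 (adjusted p = 0.000444). A second probe of TSPO gave an interaction of -2.12. AT3G17520 was also highest in tfl2-1, with differences of 1.57, 2.95 and 1.80 and an interaction of -2.72 (adjusted p = 0.000535). AT1G44970, below background in WT, was at least 7.55-fold over WT in tfl2-1 and at least 1.57-fold in the double mutant (adjusted p = 0.000257), and differed by -2.27 between the double mutant and tfl2-1 (adjusted p = 0.000153). OXS3, a factor of oxidative stress tolerance, stood at 0.77, 1.52 and 0.91 over WT, with an interaction of -1.38 (adjusted p = 0.000535).

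Of the 16 tested genes on an abscisic acid and drought list, 12 were called higher in tfl2-1 and none lower (background 26.2% and 28.4%), and 8 were higher and 4 lower in the double mutant (30.8% and 32.9%). The double mutant was called lower than tfl2-1 for 8 and higher for 1 (18% and 13.5%). LEA7 was the 1 gene of that list in the group. Seed maturation markers went both ways: 3 were called higher in tfl2-1 and 1 lower (SESA3, a seed storage albumin, by a log2 difference of -3.72), and 2 were higher and 2 lower in the double mutant. Of 12 such markers 6 were tested, all 6 below background in as1-1, 5 in WT, 3 in the double mutant and 1 in tfl2-1, and their summed signal was 108 to 152 in WT, 37.9 to 66.7 in as1-1, 250 to 268 in tfl2-1 and 91.5 to 121 in the double mutant. Their part in the result was not tested. In whole seedlings, fewer cells of a type and less RNA per cell cannot be told apart.

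Several genes stood well above WT and as1-1 in both genotypes with tfl2-1, a difference that cannot be told apart from the slide. LBD1 (AT1G07900), of the LATERAL ORGAN BOUNDARIES domain family, read 4.87 and 4.79 in WT, 5.64 and 5.68 in as1-1, 7.92 and 7.94 in tfl2-1, and 7.73 and 7.80 in the double mutant. The double mutant lay just under tfl2-1 on both arrays, a difference of -0.16 that was not called (adjusted p = 0.0606), and the interaction was -0.99 (SE 0.07, adjusted p = 0.000712). AT2G28200 and DR750066 had the same order, with interactions of -0.94 and -1.33. For scpl31, a serine carboxypeptidase-like gene, the double mutant was 0.17 over tfl2-1 (adjusted p = 0.309), and the interaction of -0.53 was not called (adjusted p = 0.0673).

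NM_116786, which carries no gene name here, read 9.38 and 9.55 in tfl2-1 and 9.37 and 9.27 in the double mutant. It was below background in WT and as1-1, was at least 39.8-fold over WT in tfl2-1 and at least 36.0-fold in the double mutant (adjusted p = 2.11e-06 for the latter). Its as1-1 difference of 0.69 and its interaction rest on levels below background. Its second probe gave as1-1 minus WT of -0.88 and an interaction of 0.55, against -0.83 (adjusted p = 0.0487) for the probe used. CYP96A15 (MAH1, AT1G57750), a cytochrome P450 that oxidises stem wax alkanes, was below background in WT and read 4.37 and 3.99 in as1-1, 7.84 and 7.97 in tfl2-1, and 7.01 and 6.92 in the double mutant. CYP96A15 was at least 13.5-fold over WT in tfl2-1 and at least 7.02-fold in the double mutant (adjusted p = 0.00102). The double mutant arrays lay under those of tfl2-1 by 0.94 on average, which was not called (adjusted p = 0.221).

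In 16 genes the as1-1 difference was the larger. AT4G24110 read 6.77 and 7.02 in WT, 8.91 and 8.95 in as1-1, 8.30 and 8.25 in tfl2-1, and 9.19 and 9.13 in the double mutant. The double mutant was highest on both arrays, 0.89 over tfl2-1 (adjusted p = 0.00103), and its margin over as1-1 of 0.23 was not called (adjusted p = 0.0573), with an interaction of -1.15 (adjusted p = 0.00232). AT1G13670 had differences of 1.52, 0.80 and 2.04, and as1-1 raised it by 1.24 in tfl2-1 plants (adjusted p = 0.000103), with an interaction of -0.28 (interval -0.47 to -0.09, adjusted p = 0.0554). SCPL34, a second serine carboxypeptidase-like gene, stood at 0.75, 0.59 and 0.63 over WT, with an interaction of -0.72 (adjusted p = 0.00216). Its double mutant was not called against tfl2-1 (difference 0.04, adjusted p = 0.615) or as1-1 (difference -0.13, adjusted p = 0.0726). Both double mutant arrays of SCPL34 lay below both as1-1 arrays. For NM_125162 the values were 1.48, 0.94 and 1.86, with an interaction of -0.55 (adjusted p = 0.00921).

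In 6 genes the interaction was poorly bounded because replicate arrays scattered: MYB66, ECP63, AT1G24330, AT5G44350, CYP96A15 and PUP2. MYB66 (WEREWOLF), a MYB factor of root epidermal patterning, read 6.10 and 8.19 in tfl2-1 and 7.43 and 8.78 in the double mutant, and its interaction of 0.16 had an interval from -2.35 to 2.67. ECP63, a late embryogenesis abundant protein, read 6.29 and 1.29 in as1-1, and without the second of these arrays its interaction went from -3.42 (adjusted p = 0.288) to -5.92 (adjusted p = 0.00574). AT1G24330 scattered in tfl2-1 at 6.26 and 8.33 and AT5G44350 in as1-1 at 7.17 and 5.16. CYP96A15 scattered below background in WT, and without either WT array its interaction passed, at -2.93 (adjusted p = 0.00311) or -1.15 (adjusted p = 0.0273).

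Beyond these genes, the members named by RefSeq were a mixed set: EXPA9 (an expansin of cell wall loosening), EXL2 (EXORDIUM-like), YSL5, ADS4 (a fatty acid desaturase family member), NAC084 (a NAC domain factor) and ASG1. Of these, EXPA9, EXL2, YSL5 and ASG1 were called below the sum, with interactions from -1.01 to -0.58. A search for the names of 28 gene families in RefSeq symbols and synonyms matched at most 2 members each, a count of names that misses relatives named otherwise, such as RHL41 beside ZAT6 and ZF2. The 19 gene lists gave 7 memberships in all, 4 of them in the touch, wounding and cold list and 1 each in the BELL homeodomain, floral identity and abscisic acid lists. Members on chromosomes 1 to 5 numbered 19, 7, 9, 4 and 18, of 5002, 2904, 3767, 2865 and 4462 genes tested there, and no 2 members were neighbouring loci.

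Other probes of the same genes were kept for 11 members, 12 probes in all. Both single-mutant differences were over 0 on 10 of the 12 and met the 0.6 threshold on 6, and the interaction was under 0 on 10. The exceptions in direction were NM_116786, given above, and AT5G37540, whose other probe gave -0.06 in as1-1 and 0.15 in tfl2-1 where the probe used gave 0.68 and 1.01. The other probe of ZF2 gave 0.39 and 0.49, with an interaction of -1.31.

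Over the whole series, between 67.1% and 72.5% of the 43603 probes were well above background per array, with no saturated spot, and arrays of 1 genotype correlated at 0.995 or more. The summed signal of 25 photosynthesis genes, a marker of green tissue, was 6727000 to 7152000 in WT, 6377000 to 6466000 in as1-1, 5094000 to 5507000 in tfl2-1 and 4221000 to 4552000 in the double mutant, with all 25 above background in every genotype. Of the other markers, 7 of 16 root genes and 3 of 9 flower genes were tested. Root markers summed to 3312 to 3506 in WT, 3642 to 3644 in as1-1, 3651 to 3682 in tfl2-1 and 4155 to 4247 in the double mutant, and flower markers to 1294 to 1323, 1336 to 1417, 1145 to 1220 and 1417 to 1478 in the same order. Single markers did not all follow these sums. In each single mutant, 0 root genes were called higher than WT and 2 lower. In the double mutant, 2 root genes were called higher and 2 lower, and 2 flower genes higher and 1 lower (background 30.8% and 32.9%). In tfl2-1, 1 flower gene was called higher and 1 lower (background 26.2% and 28.4%). The part of these shifts in the results was not tested.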

How the data were processed

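The deposited scanner files hold 1 Cy3 intensity per spot, background-subtracted and detrended by Agilent Feature Extraction 10.7 (per the file headers and the submitters' processing notes), on a linear scale. A deposited value table holds the authors' log2 values per probe, whose making is not given in the sources used here; it ran with the log2 scanner signal at r of 0.9987 or more, its column medians are 7.6809 to 7.6817, and it served to apply the selection rule. Its direction is that of the signal, and its centring is unknown beyond that.

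For the results, log2 processed signal was set to each array's 75th percentile (a constant of 10.41 was added back), leaving out control spots and 67 spots marked as outliers. Probes well above background on both arrays of a genotype were kept (30467 of 43603), 1 per gene, the brightest, giving 22668 genes. Names came from RefSeq TAIR10.1; the files name an older build, so no coordinates are given. All 8 arrays entered limma 3.58.1 (R 4.3.3; lmFit, eBayes; 4 residual and 2.06 prior degrees of freedom), two-sided, Benjamini-Hochberg over all genes, threshold 0.05. An adjusted p comes from this fit unless an alternative is named beside it. A bound takes, for a dim genotype, the higher of the lowest signal well above background and the gene's own. The number of arrays limits precision.

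The members, gene lists and families were chosen with earlier results of these data known. Of 317 list symbols, 8 found no match and 7 were dropped as naming another gene. Genes described in full were the 6 largest sums, the 6 largest double mutant differences, the 6 lowest and up to 6 highest called interactions above background in all genotypes, up to 3 per list, genes nearest each threshold and the 5 left out; all others were chosen after their values were seen. Alternatives were other normalizations, filters, probe choices, rule thresholds, a replicate block, the slide as a block and each array left out. Promoter sequences were not analysed here.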

Additional observations from a re-analysis of the deposited data

Results flagged for a closer look

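For 11 of the genes singled out by rule, the interaction in limma was called (adjusted p under 0.05, values on the log2 scale, as1-1 effect in tfl2-1 plants minus as1-1 effect over WT). That rule took its lowest and highest interactions only from genes already called, so the count of 11 is not a result. Over all genes tested, 9.67% were called below the sum and 10.6% above it. The as1-1 effect was lower in tfl2-1 plants for LEA7 (-3.66), RHL41 (-3.19), AT5G37940 (-2.91), TSPO (-2.38), ERF104 (-2.24), ORA47 (-2.08) and ZAT6 (-1.80). It was higher for AT5G28520 (0.49), AT1G33790 (0.63) and AT1G36060 (0.70). The value for NM_116786 (-0.83, and 0.55 on its second probe) rests on WT and as1-1 levels below background, so its as1-1 effect over WT was not measured. For LEA7, RHL41, AT5G37940, TSPO, ORA47 and ZAT6 the double mutant was also called lower than tfl2-1, so the as1-1 effect changed sign, while for ERF104 that difference was not called. The genes were chosen for high values in as1-1 and tfl2-1, which lowers the interaction by itself, and the part of this in each value was not tested.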

How the results depend on the processing

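The counts below are shares of the group's genes. Processing: with normexp background the share called above the sum was 16.2% in place of 4.41% and the median interaction -0.40 in place of -0.66. The other shares stayed within 1.5 times, as did all of them with quantile normalization, the authors' table, no filter on dim probes, only probes above background on all arrays, the mean over a gene's probes, the slide as a block (contrasts within slides) and scanner values in the rule. Rule: at 0.5 in place of 0.6 (116 genes) the median was -0.54 and 2.59% were lower in the double mutant than WT, in place of 1.47%. At 1 (17 genes) the median was -1.26, 29.4% were lower than tfl2-1 (19.1% as reported), 17.6% above the sum and 0 lower than WT. With no tfl2-1 minimum (463 genes, 203 tested) the median was -0.81, 12.3% were lower than tfl2-1, 27.6% below the sum (45.6% as reported) and 0.493% lower than WT. With any probe of a gene passing (113 genes) 7.08% were lower than as1-1 (11.8% as reported), 2.65% above the sum and 0.885% lower than WT. Choice on 1 replicate and reading on the other gave a median of -0.24, and linear addition -0.22. Chosen after seeing the data: without the touch, wounding and cold list 6.25% were lower than as1-1, and for the 47 genes with tfl2-1 minus WT of 1 or more the median was -0.83 and 0 were lower than WT, while the 64 genes with all single-mutant arrays above WT and the 63 not below background in WT moved no share past 1.5 times. The cause of these shifts was not tested beyond the changed membership.

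Leaving out 1 array gave 35.3% to 45.6% higher and 16.2% to 23.5% lower than tfl2-1, 57.4% to 64.7% higher and 11.8% to 13.2% lower than as1-1, 2.94% to 5.88% above and 36.8% to 48.5% below the sum, 80.9% to 88.2% higher and 1.47% to 2.94% lower than WT (2.94% without the first double mutant array), and a median interaction of -0.74 to -0.63. Single genes: with normexp SHP1 went to 0.44, ENDO3 to 0.62 (adjusted p = 0.00133), CYP96A15 to -0.69 (adjusted p = 0.0114) and NM_116786 to -0.03 (adjusted p = 0.837). NM_116786 also missed the threshold with no filter on dim probes (adjusted p = 0.138), with the mean of its probes (adjusted p = 0.772), and without the second WT array, the first as1-1 array or any 1 array of tfl2-1 or the double mutant (adjusted p from 0.0816 to 0.134). With the replicate number as a block, the share below the sum and the other shares stayed within 1.5 times, and among the named genes NM_116786 lost its call (adjusted p = 0.053). The numbers do not pair the arrays: deviations of same-numbered arrays correlated at -0.06 to 0.05. The planned search for promoter motifs was not run, since no sequences were at hand. Signal near background limits the genes dim in WT, and 2 arrays per genotype limit every interval.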
